A study of Mus musculus with 8 samples.

Results

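The contacts of 5 promoter viewpoints in the mouse neuroblastoma line N2a were compared with those in mouse cortical neural stem cells (NSC) labelled as E14.5. The comparison used 4 libraries, N2a replicates 1 and 2 and NSC replicates 1 and 2, out of 8 in the series. It used 20 of the 40 files, all chosen by their labels. N2a is an established tumour line, grown in DMEM with 10% fetal bovine serum. The NSC were plated in serum-free medium, which for NSC replicate 1 is labelled as holding bFGF and EGF at 20 ng/ml each. No treatment or genetic change is labelled for either group. The other 4 libraries, from embryonic stem (ES) cells and from cortical neurons that were made from stem cells also labelled E14.5, entered only the estimate of the spread between replicates and a few descriptions. The assay measured crosslinked genomic DNA and no RNA, so the labelled cell types could not be checked against marker genes.

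In this kind of assay, chromatin is crosslinked, cut and ligated, and reads that join a chosen fragment, the viewpoint, to another fragment count as contacts. Contact frequency falls with distance along a chromosome, and promoters and their enhancers mostly meet within domains that are much smaller than a chromosome. Pax6, Sox2 and Pou3f3 encode transcription factors of neural progenitors and the developing brain, and Paupar is a long noncoding RNA gene beside Pax6. N2a cells are widely used as a proliferating model of neuronal cells, and NSC in culture divide and can form neurons.

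In mm10 the Paupar viewpoint stretch was chr2:105660480-105662320. The stretches of Pax6P0 and Pax6P1, named for 2 promoters of Pax6, were chr2:105667489-105669388 and chr2:105674040-105676188. Sox2 was read from chr3:34647002-34650633 and Pou3f3 from chr1:42695817-42699251. Each of these stretches is the longest stretch near the named gene without listed fragments, and distances are counted from its centre. Upstream here means lower coordinates and downstream higher coordinates, whatever the strand of the gene. The following promoter windows, from 250 bases before to 50 bases after the annotated start in RefSeq (GRCm38.p6, plus strand), show where the assay could and could not separate contacts. Capitals mark GATC, a palindrome read the same on both strands. All 1630 borders between listed fragments that fell in RefSeq promoter windows read GATC, with 2 of its bases missing between neighbouring fragments. The motif was found in 15748 of all 32815 promoter windows, or 47.99%. The first pair belongs to viewpoints, and the second pair to genes whose bodies were contacted less in N2a.
Sox2, chr3:34649745-34650044: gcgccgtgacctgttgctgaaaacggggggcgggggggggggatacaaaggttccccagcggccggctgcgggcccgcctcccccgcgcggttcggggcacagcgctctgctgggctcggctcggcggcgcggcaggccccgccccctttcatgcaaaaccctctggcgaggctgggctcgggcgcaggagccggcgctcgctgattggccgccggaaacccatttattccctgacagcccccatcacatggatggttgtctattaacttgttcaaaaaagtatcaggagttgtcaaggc
Pax6, chr2:105668646-105668945: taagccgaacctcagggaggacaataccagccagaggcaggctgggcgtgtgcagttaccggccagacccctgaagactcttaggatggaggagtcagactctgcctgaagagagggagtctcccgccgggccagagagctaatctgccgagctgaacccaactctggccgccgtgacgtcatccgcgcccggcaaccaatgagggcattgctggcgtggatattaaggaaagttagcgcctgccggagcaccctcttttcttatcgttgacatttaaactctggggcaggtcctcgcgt
4930527A07Rik, chr2:105476193-105476492: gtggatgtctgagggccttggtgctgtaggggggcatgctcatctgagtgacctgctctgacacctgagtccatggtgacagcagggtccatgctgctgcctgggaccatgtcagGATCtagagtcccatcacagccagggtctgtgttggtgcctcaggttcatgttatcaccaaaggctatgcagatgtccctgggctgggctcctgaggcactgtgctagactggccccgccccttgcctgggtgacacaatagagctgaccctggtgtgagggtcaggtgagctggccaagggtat
Fxr1, chr3:34019829-34020128: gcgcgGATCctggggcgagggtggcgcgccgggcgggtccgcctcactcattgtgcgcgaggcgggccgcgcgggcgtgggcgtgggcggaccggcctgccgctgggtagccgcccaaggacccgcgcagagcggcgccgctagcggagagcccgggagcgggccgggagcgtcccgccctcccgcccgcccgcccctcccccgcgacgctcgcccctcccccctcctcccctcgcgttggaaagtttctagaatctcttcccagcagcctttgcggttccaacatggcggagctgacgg
The Sox2 and Pax6 windows held 0 GATC sites and lay whole inside the Sox2 and Pax6P0 viewpoint stretches. The 4930527A07Rik and Fxr1 windows each held 1 site, so that reads on either side of it were listed in separate fragments.

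The 20 files held 18150 to 90146 listed reads (median 61341). Summed over viewpoints, NSC replicate 1 held 110677 reads, NSC replicate 2 held 341036, N2a replicate 1 held 281950 and N2a replicate 2 held 367615. Other chromosomes took 43.5% and 32.1% of the listed reads in NSC replicates 1 and 2, and 47.7% and 28.8% in N2a replicates 1 and 2. The number 1 libraries were thus the higher ones in both groups, and the groups overlapped. Number 1 was also the higher library in ES cells (41.5% against 34.7%) and in neurons (41.6% against 36.8%). Within each viewpoint the difference between the group means lay between -1.36 and 4.29 percentage points, with a two-sided exact permutation p of 1 from each. With 2 libraries against 2 the smallest p such a test can give is 0.3333. Whether replicates came from separate cultures is not labelled, and all p values measure only the spread between these libraries. Across the tested 5 kb windows, Spearman correlations between the replicates were 0.526 (N2a) and 0.565 (NSC) from Sox2, against 0.310 to 0.529 between groups. From the other 4 viewpoints they were 0.621 to 0.695 between replicates and 0.505 to 0.707 between groups. These correlations are across windows, which are not independent, and they share the fall of reads with distance.

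The reads of N2a were spread over longer distances than those of NSC from the Sox2 and Pax6-locus viewpoints. Reads on the viewpoint's own chromosome more than 5 kb from its centre are called cis reads, and shares below are in percent of a file's cis reads. Between 5 kb and 1 Mb from Sox2, NSC replicates 1 and 2 held 70.8% and 77.5% of cis reads, and N2a replicates 1 and 2 held 47.5% and 53.2%. From Paupar the 4 shares were 59.5%, 62.5%, 48.4% and 53.9% in the same order, from Pax6P0 57.4%, 65.0%, 46.4% and 52.8%, and from Pax6P1 58.3%, 59.6%, 42.5% and 47.5%. From these 4 viewpoints both N2a libraries lay below both NSC libraries, with an exact two-sided permutation p of 0.3333, the smallest possible. From Pou3f3 the shares were 54.7% and 62.4% in NSC and 53.1% and 63.9% in N2a, so the groups overlapped (exact p of 1).

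Cis reads were then divided by side and distance into 128 classes over the 5 viewpoints. In edgeR's quasi-likelihood test 22 classes were higher and 20 lower in N2a at an adjusted p under 0.05, together 32.8% of those tested. A further 11 classes had only an unadjusted p under 0.05, for 53 in all, and DESeq2 called 24 higher and 21 lower. Within 1 Mb 4 classes were higher and 17 lower of 70, and beyond 1 Mb 18 were higher and 3 lower of 58. The classes of 1 file are shares of the same total, so lower shares in some go with higher shares in others. The counts are therefore not independent. In all 42 called classes both N2a libraries lay on one side of both NSC libraries, as they did in 75 of all 128 classes. When shares were taken of all listed reads, other chromosomes included, 11 classes were higher and 13 lower. Leaving out 1 library gave 29 to 44 called classes.

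**Figure D1:**
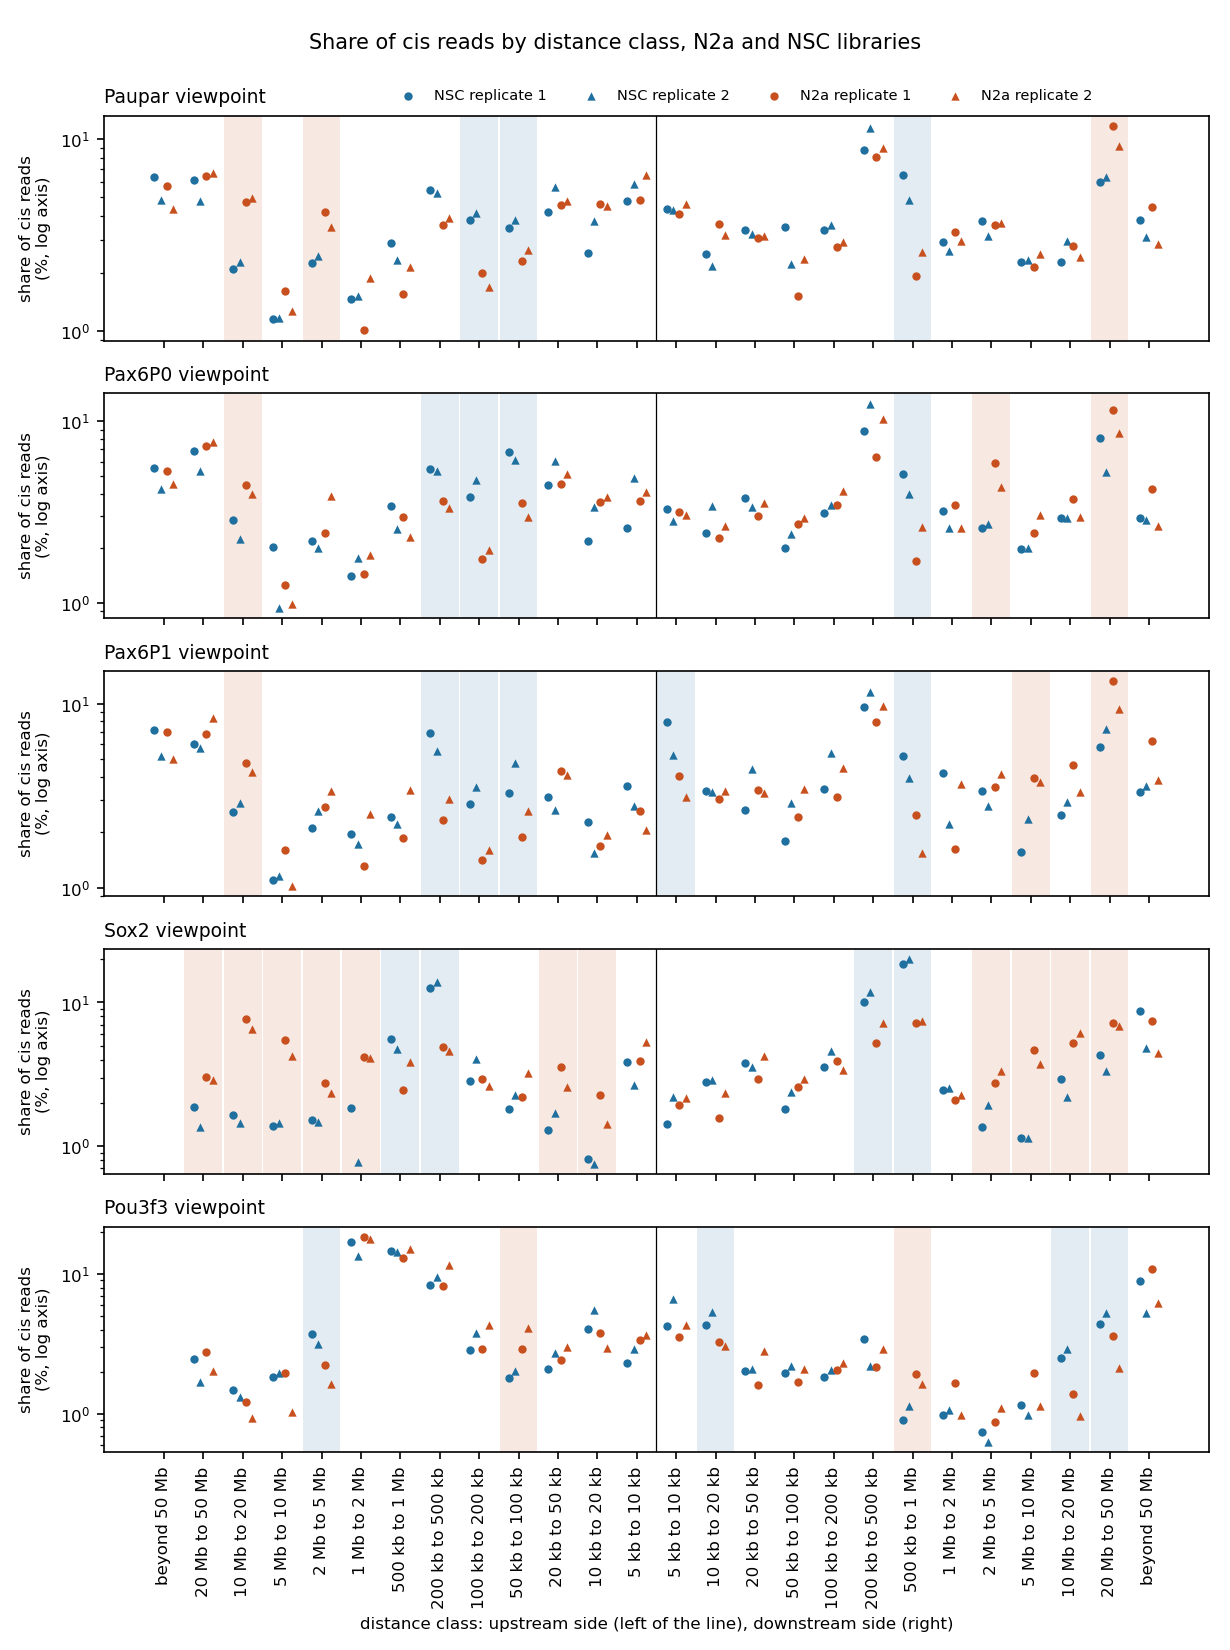
Share of cis reads (percent, log axis) in each distance class upstream (left) and downstream (right) of the 5 viewpoints, with 1 point per N2a or NSC library. Shaded classes passed the edgeR test (blue, lower in N2a; orange, higher), and from Sox2 all 4 shaded classes from 200 kb to 1 Mb are lower in N2a while all 9 shaded classes beyond 1 Mb are higher.

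The ES cell and neuron libraries lay on the NSC side in most of these classes. Of the 22 classes higher in N2a, the neuron mean was nearer to the NSC mean than to the N2a mean in 21, and the ES mean in 17. Of the 20 lower classes this held in 20 for neurons and in 17 for ES cells. This is a description, with no test.

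From Sox2, 11 of 25 classes were higher and 4 lower in N2a. The class 500 kb to 1 Mb downstream held 18.5% and 20.0% of cis reads in NSC and 7.21% and 7.44% in N2a, a log2 change of -1.40 (SE 0.16, edgeR adjusted p 7.33e-09). The class 200 to 500 kb upstream held 12.7% and 13.9% in NSC and 4.88% and 4.58% in N2a, a log2 change of -1.49 (SE 0.19, adjusted p 1.04e-07). The group ranges were far apart in both classes, and replicates lay close together. Summed over both sides, 200 kb to 1 Mb held 46.9% and 50.5% in NSC, 19.8% and 23.0% in N2a, 34.8% and 36.1% in ES cells, and 45.0% and 48.1% in neurons. Upstream alone that range held 18.2% and 18.6% in NSC, 7.32% and 8.40% in N2a and 9.51% and 9.88% in ES cells, and the upstream class 200 to 500 kb held 5.57% and 5.69% in ES cells. Upstream, then, the ES libraries lay nearer to N2a than to NSC. Nearer to the promoter the order turned upstream. There the 10 to 20 kb class rose from 0.810% and 0.752% to 2.28% and 1.42% (log2 1.24, SE 0.32, adjusted p 0.00243) and the 20 to 50 kb class from 1.30% and 1.70% to 3.55% and 2.58% (log2 1.01, SE 0.28, adjusted p 0.00397). The 10 to 20 kb call ended when NSC replicate 2 (adjusted p 0.0558) or N2a replicate 1 (0.133) was left out, and the 20 to 50 kb call when NSC replicate 1 (0.075) or N2a replicate 1 (0.071) was.

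The gain of N2a in Sox2 contacts lay mostly between 5 and 20 Mb. The class 10 to 20 Mb upstream held 1.64% and 1.45% in NSC and 7.63% and 6.56% in N2a (log2 2.21, SE 0.25, adjusted p 7.33e-09). The class 5 to 10 Mb downstream held 1.14% in both NSC libraries and 4.69% and 3.71% in N2a (log2 1.88, SE 0.26, adjusted p 3.98e-07). The class 5 to 10 Mb upstream held 1.38% and 1.45% in NSC and 5.50% and 4.22% in N2a (log2 1.78, SE 0.28, adjusted p 3.69e-06). The class 1 to 2 Mb upstream held 1.84% and 0.776% in NSC and 4.14% and 4.09% in N2a (log2 1.71, SE 0.31, adjusted p 3.75e-05). Summed over both sides, 5 to 20 Mb held 7.11% and 6.25% in NSC, 23.0% and 20.7% in N2a, 7.17% and 7.78% in ES cells, and 6.45% and 5.28% in neurons. The N2a libraries thus lay above all 6 others there, while 20 Mb and beyond held 14.9% and 9.52% in NSC and 17.7% and 14.1% in N2a, with the groups overlapping. The share within 5 to 100 kb was 17.6% and 18.4% in NSC and 20.9% and 24.2% in N2a, without overlap. These 4 classes and the 2 named above at 200 kb to 1 Mb kept their direction and their call under all 15 alternatives.

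Within 1 Mb of Sox2 the loss was resolved in 5 kb windows. Of 366 windows tested 3 were higher and 34 lower in N2a, 10.1% in all (0.82% higher, 9.29% lower). The unadjusted p was under 0.05 in 89 of them. The median log2 change of the tested windows was -0.86, so a window at this value changed as much as the typical one. Scaled by TMM factors, which centre on the windows themselves, the median was 0.04, and 13 windows were higher and 11 lower. DESeq2's size factors gave 23 higher and 10 lower, and DESeq2's test with the cis totals 3 and 57. The count was 18 to 24 without any 1 of 7 libraries and 45 without N2a replicate 2. Adjusting over the windows of all viewpoints left 19. Collapsing each run of adjacent fragments to the fewest reads that could make it left 17.

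The lower windows lay in stretches on both sides of Sox2. Upstream, 12 of 59 tested windows between 200 and 500 kb were lower. Of the 12, 1 held 0 reads in both N2a libraries, and the others had log2 changes of -4.56 to -2.08. Downstream, 9 of 22 windows between 400 and 510 kb were lower (-2.87 to -1.97) and 6 of 21 in a stretch of about 100 kb from 830 kb (-4.30 to -2.70). None of those 15 downstream windows overlapped a gene of the RefSeq table, nor did 67.5% of all 191 tested downstream windows. Between 590 and 760 kb 4 of 32 windows were lower (-2.90 to -1.90), of which 3 lay in the predicted genes Gm35425 and Gm38512. That stretch as a whole held 5.74% and 7.34% in NSC and 2.04% and 3.09% in N2a. These borders were drawn after the values were seen. The window 830 to 835 kb downstream (chr3:35478817-35483816) held 3.43% and 2.38% of cis reads in NSC, 0.393% and 0.289% in N2a, 0.346% and 1.13% in ES cells and 1.60% and 1.39% in neurons. Its log2 change was -3.09 (SE 0.45, adjusted p 2.23e-09), and the N2a and ES libraries overlapped.

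Another 3 of the lower windows also lay far below the median change. The window 925 to 930 kb downstream held 0.529% and 0.572% in NSC and 0.0135% and 0.0397% in N2a (log2 -4.30, SE 0.79, adjusted p 1.11e-05). At 370 to 365 kb upstream the shares were 0.280% and 0.430% in NSC and 0.0181% and 0.0142% in N2a (log2 -4.46, SE 0.98, adjusted p 0.000695). At 380 to 375 kb upstream they were 0.727% and 0.682% in NSC and 0.0542% and 0.105% in N2a (log2 -3.12, SE 0.71, adjusted p 0.000905). These 4 windows stayed lower under all 16 alternatives, TMM factors included. The adjusted p of 0.000905 was shared by the lower windows that start 360 kb upstream and 835 and 840 kb downstream.

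The higher Sox2 windows were fewer and less stable. Within Sox2ot, the noncoding gene that spans Sox2, the window 40 to 35 kb upstream held 0.104% and 0.191% in NSC and 1.16% and 0.425% in N2a (log2 2.37, SE 0.69, adjusted p 0.0122). Also in Sox2ot, the window 20 to 15 kb upstream held 0.125% and 0.226% in NSC and 0.975% and 0.600% in N2a (log2 2.12, SE 0.63, adjusted p 0.0144). N2a replicate 1 was the highest library in both. Leaving out NSC replicate 1 moved their adjusted p to 0.116 and 0.147, and leaving out N2a replicate 1 moved it to 0.248 and 0.129. The window 850 to 845 kb upstream, over Ttc14, held 0% and 0.0172% in NSC and 0.361% and 0.0708% in N2a (adjusted p 0.0409). Its call ended without any 1 of the libraries except N2a replicate 2, with adjusted p from 0.0608 to 0.431.

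**Figure D2:**
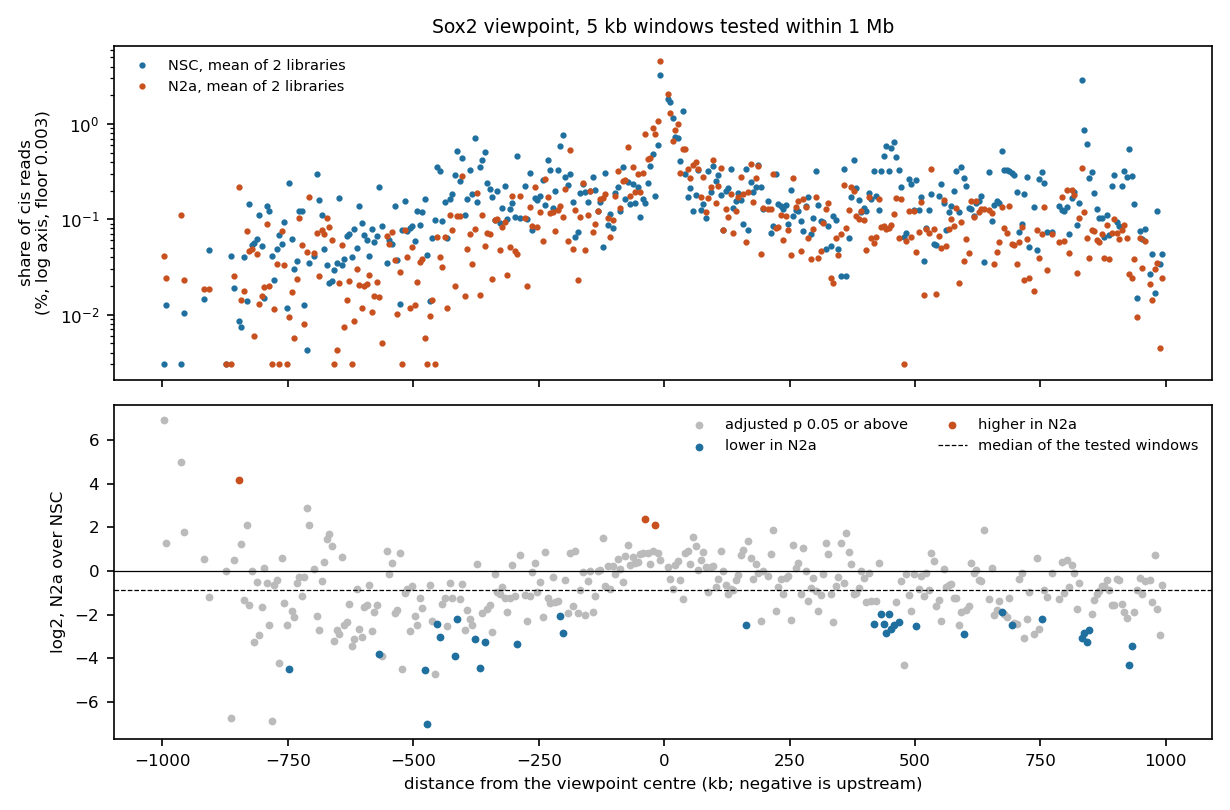
Top, mean share of cis reads (percent, log axis) of 2 NSC and 2 N2a libraries in each tested 5 kb window by distance from Sox2. Bottom, log2 change of N2a over NSC in the same windows, where 34 blue windows are lower, 3 orange windows are higher, and the dashed line is the median of -0.86.

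Gene bodies around Sox2 followed the windows. Over all viewpoints 133 pairs of viewpoint and gene were tested, of which 1 was higher and 14 lower, 11.3% in all, with 33 under 0.05 before adjustment and a median log2 change of -0.38. From Sox2, Fxr1, which encodes an RNA-binding protein of the fragile X family, held 0.633% and 0.735% in NSC and 0.0993% and 0.212% in N2a (log2 -2.12, SE 0.55, adjusted p 0.0107). Dnajc19, whose product works at the mitochondrial inner membrane, overlaps Fxr1 and so shares fragments with it. It held 0.343% and 0.338% in NSC and 0.0542% and 0.119% in N2a (log2 -1.95, SE 0.55, adjusted p 0.0189). A pair of noncoding genes outside the chosen list was lower too. Gm38512, 689 kb downstream, held 2.01% and 3.004% in NSC and 0.618% and 0.841% in N2a (log2 -1.78, adjusted p 0.00068), and Gm52623 held 0.446% and 0.662% in NSC and 0.126% and 0.150% in N2a (log2 -2.01, adjusted p 0.0121).

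Sox2ot was the 1 gene body higher in N2a. It held 12.996% and 13.3% of cis reads in NSC and 16.5% and 18.4% in N2a, a log2 change of 0.41 (SE 0.13, adjusted p 0.035). Both N2a libraries lay above both NSC libraries, but the call ended without any 1 library other than N2a replicate 1, with adjusted p from 0.0666 to 0.197. Fxr1 lost its call without NSC replicate 2 (adjusted p 0.0689) or N2a replicate 1 (0.0874). For Dnajc19 the adjusted p was 0.0505, 0.0794 and 0.12 when NSC replicate 1, NSC replicate 2 or N2a replicate 1 was left out. As a share of cis reads within 1 Mb, Sox2ot had a log2 change of 0.97 (adjusted p 6.36e-06). On that scale Fxr1 (log2 -1.58, adjusted p 0.0563) and Dnajc19 (-1.41, adjusted p 0.117) did not pass. Ttc14 held 0.0104% and 0.123% in NSC and 0.298% and 0.0935% in N2a, and Ccdc39, a gene of motile cilia, 0.768% and 0.230% against 0.266% and 0.232%, with the groups overlapping in both.

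A control region that acts on Sox2 in ES cells lies 100 to 120 kb downstream, and its contacts did not differ between N2a and NSC beyond their spread. It held 0.747% and 0.847% of cis reads in NSC and 0.546% and 1.05% in N2a, against a mean of 3.95% in ES cells. The log2 change was -0.00271 with a half-width of 0.80 for its 95% interval (SE 0.41, edgeR p 0.995). It lay between -0.55 (without N2a replicate 2) and 0.39 (without N2a replicate 1) when 1 library was left out, and was 0.54 as a share of cis reads within 1 Mb.

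Further along chromosome 3, the reads beyond 1 Mb from Sox2 were spread differently over the chromosome in N2a and NSC. They were counted in 2 Mb bins of each viewpoint's chromosome, here as shares of the cis reads beyond 1 Mb. From Sox2 that total was itself larger in N2a, at 52.5% and 46.8% of cis reads against 29.2% and 22.5% in NSC. The part 20 Mb and beyond held 14.9% and 9.52% of cis reads in NSC and 17.7% and 14.1% in N2a, and the groups overlapped. Its upstream side held 1.87% and 1.35% in NSC and 3.03% and 2.89% in N2a, without overlap. A lower share of the reads beyond 1 Mb need not be a lower share of cis reads. Of 445 bins over the 5 viewpoints 10 were higher and 20 lower in N2a, 6.74% in all (2.25% higher, 4.49% lower), with 97 under 0.05 before adjustment and a median log2 change of -0.18. As shares of all cis reads, the split was 36 higher and 12 lower. DESeq2 called 20 higher and 26 lower. The count was 15 without ES replicate 1, 17 without ES replicate 2 and 17 without N2a replicate 1. From Sox2, 6 bins of 20 within 20 Mb were higher and 1 lower, while 0 of 58 bins beyond 20 Mb were higher and 10 lower. The median log2 change was 0.72 in the first set and -1.13 in the second. As shares of all cis reads beyond 5 kb, 12 of the 20 nearer bins were higher and 0 lower, with a median of 1.71, and 8 of the 58 farther bins were higher and 4 lower, with a median of -0.23.

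The bin at 8 to 10 Mb of chromosome 3, about 25.6 Mb upstream of Sox2, held 2.71% and 2.42% in NSC and 0.301% and 0.460% in N2a (log2 -2.74, SE 0.36, adjusted p 7.61e-05). The bin at 16 to 18 Mb held 0.997% and 0.910% in NSC and 3.51% and 3.46% in N2a (log2 1.88, SE 0.36, adjusted p 0.00246). These 2 bins lie 8 Mb apart, and each kept its direction and call under all 14 alternatives, shares of all cis reads beyond 5 kb among them (log2 -1.82 and 2.83). Bins at 24 to 26 Mb (1.14% and 1.44% against 4.00% and 3.71%), 42 to 44 Mb (1.10% and 1.52% against 4.93% and 3.94%) and 44 to 46 Mb (1.64% and 1.30% against 3.93% and 4.15%) were also higher in N2a. Their log2 changes were 1.57, 1.74 and 1.47 with adjusted p of 0.0105, 0.0153 and 0.0105. Leaving out N2a replicate 1 ended these 3 calls (adjusted p 0.0534, 0.106 and 0.0534). The first was also lost without NSC replicate 1 (0.0606), the second without ES replicate 1 (0.0615) or ES replicate 2 (0.0531), and the third without NSC replicate 2 (0.0879) or N2a replicate 2 (0.0889).

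As shares of the reads beyond 1 Mb, the 10 lower bins beyond 20 Mb lay at 6 to 10 Mb and between 78 and 154 Mb of chromosome 3. Upstream they were the bin at 8 to 10 Mb and its neighbour at 6 to 8 Mb, which held 0.605% and 0.709% in NSC and 0.129% and 0.0847% in N2a (log2 -2.63, SE 0.71, adjusted p 0.0278). Downstream they began with the bin at 78 to 80 Mb, which held 1.74% and 2.11% in NSC and 0.258% and 0.314% in N2a (log2 -2.75, SE 0.59, adjusted p 0.00798). At 144 to 146 Mb the shares were 1.10% and 0.833% in NSC and 0.0516% and 0.0786% in N2a (log2 -3.85, SE 0.72, adjusted p 0.00246). The calls at 78 and 144 Mb held whichever library was left out, and that at 6 Mb ended when either ES replicate or either N2a replicate was. The calls of the bins that start at 88, 96, 104, 132 and 152 Mb each ended in some of these fits too. In the bin at 34 to 36 Mb, which holds Sox2 and here only reads beyond 1 Mb from it, NSC held 4.59% and 5.24% and N2a 1.92% and 1.77% (log2 -1.42, SE 0.33, adjusted p 0.0105; 0.0602 and 0.0893 without N2a replicates 1 and 2).

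**Figure D3:**
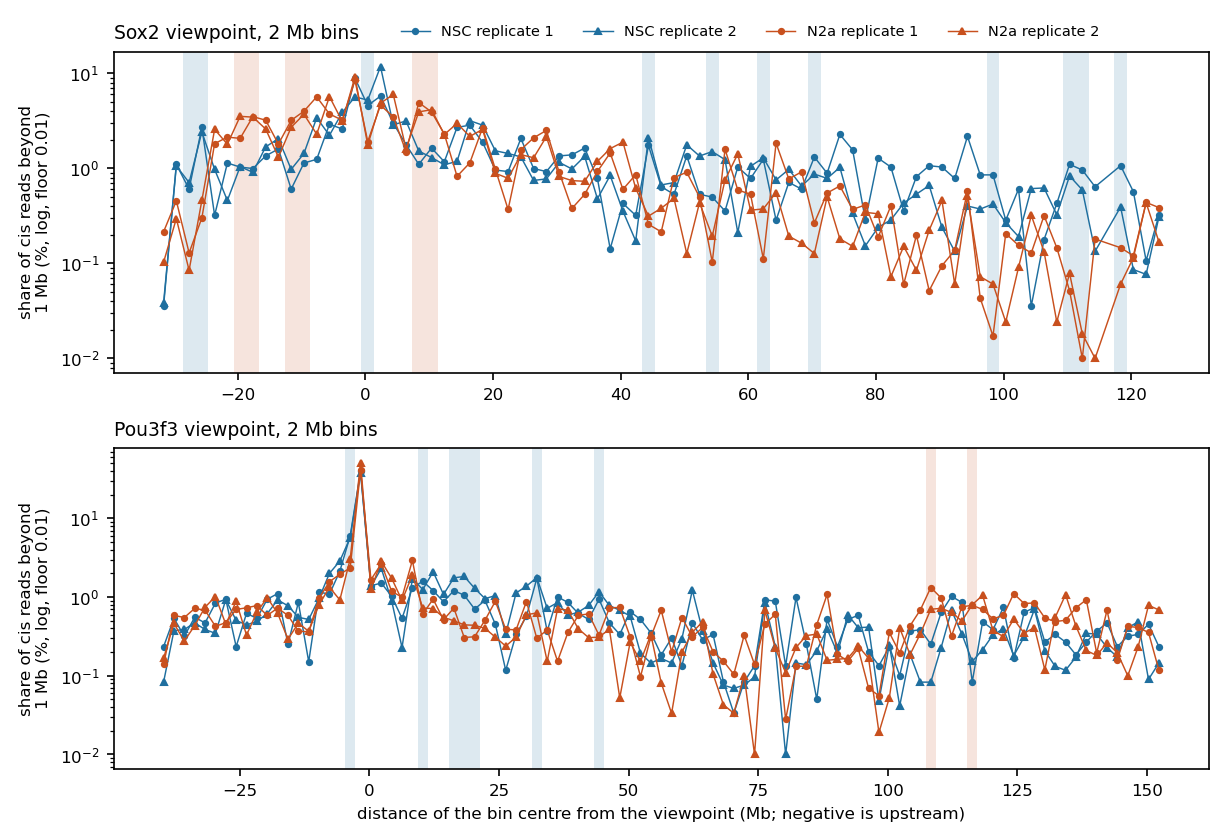
Share of cis reads beyond 1 Mb (percent, log axis) in 2 Mb bins by distance from Sox2 (top) and Pou3f3 (bottom), 1 line per library. Shaded bins passed the edgeR test (blue, lower in N2a; orange, higher), with 6 higher and 11 lower from Sox2 and 2 higher and 7 lower from Pou3f3.

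At the Pax6 locus contacts fell in N2a in the same distance classes from each of the 3 viewpoints, which lie side by side and were read in the same libraries. Of 26 classes, 3 were lower from all 3 viewpoints, 2 were higher from all 3 and 10 were called from at least 1. The class 100 to 200 kb upstream held 3.80% and 4.11% in NSC and 1.996% and 1.69% in N2a from Paupar (log2 -1.10, SE 0.21, adjusted p 6.48e-05). Its log2 changes were -1.23 from Pax6P0 and -1.07 from Pax6P1, with adjusted p of 6.48e-05 and 0.000634. The class 500 kb to 1 Mb downstream held 6.50% and 4.82% in NSC and 1.95% and 2.60% in N2a from Paupar (log2 -1.31, SE 0.22, adjusted p 1.24e-05), and changed by -1.06 from Pax6P0 and -1.18 from Pax6P1 (adjusted p 0.000634 and 0.000257). The 50 to 100 kb class upstream changed by -0.55, -0.99 and -0.83 from Paupar, Pax6P0 and Pax6P1. In each of these 9 cases both N2a libraries lay below both NSC libraries. Over all 128 classes of the 5 viewpoints the libraries did not overlap in 75. The calls at 100 to 200 kb and 500 kb to 1 Mb held from all 3 viewpoints whichever library was left out. The 50 to 100 kb call held so from Pax6P0. From Paupar it ended in 5 of 8 such fits (adjusted p 0.0513 to 0.168, leaving out either ES replicate, neuron replicate 1, NSC replicate 2 or N2a replicate 1), and from Pax6P1 when NSC replicate 2 (0.179) or N2a replicate 1 (0.112) was left out.

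Upstream from 200 to 500 kb the share from Pax6P1 was 6.92% and 5.55% in NSC and 2.32% and 3.04% in N2a (log2 -1.21, SE 0.22, adjusted p 3.75e-05). It was lower from Pax6P0 too (log2 -0.63, adjusted p 0.0187, but 0.052, 0.0552 and 0.0824 when NSC replicate 1, N2a replicate 1 or N2a replicate 2 was left out), and from Paupar its adjusted p was 0.0785. On the other side, 200 to 500 kb downstream, where Immp1l and Dnajc24 lie, the groups overlapped from all 3 viewpoints, with log2 changes of -0.25, -0.36 and -0.26 and adjusted p of 0.237 to 0.345. The 2 classes higher from all 3 viewpoints lay 10 to 20 Mb upstream and 20 to 50 Mb downstream. From Paupar the first held 2.12% and 2.30% in NSC and 4.71% and 4.93% in N2a (log2 1.12, SE 0.21, adjusted p 6.48e-05), and the second 6.02% and 6.32% against 11.7% and 9.21% (log2 0.76, SE 0.20, adjusted p 0.00312). From Pax6P0 and Pax6P1 the first changed by 0.74 and 0.72 and the second by 0.61 and 0.77. Only the first class from Paupar kept its call whichever library was left out. Leaving out N2a replicate 1 ended the other 5 calls, with adjusted p of 0.0687 to 0.357. Leaving out NSC replicate 2 also ended both Pax6P0 calls (0.146 and 0.443), NSC replicate 1 both Pax6P1 calls (0.088 each), and ES replicate 1 or 2 the second from Pax6P0 (0.0725 and 0.0662).

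The other higher classes differed between the 3 viewpoints. From Paupar the class 2 to 5 Mb upstream rose from 2.27% and 2.46% to 4.15% and 3.47% (log2 0.68, SE 0.24, adjusted p 0.0226). From Pax6P0 the class 2 to 5 Mb downstream rose from 2.59% and 2.72% to 5.89% and 4.37% (log2 0.95, SE 0.24, adjusted p 0.00243), and from Pax6P1 the class 5 to 10 Mb downstream from 1.57% and 2.36% to 3.95% and 3.76% (log2 0.96, SE 0.26, adjusted p 0.00321). Each was called from 1 viewpoint, and differences between viewpoints were not tested. The Paupar call ended when NSC replicate 1 (adjusted p 0.088), NSC replicate 2 (0.0686) or N2a replicate 1 (0.145) was left out, the Pax6P0 call when N2a replicate 1 was (0.0552) and the Pax6P1 call when NSC replicate 1 was (0.0982). Among 2 Mb bins, those called were 2 higher from Paupar and 2 lower from Pax6P0. From Paupar the bin at 94 to 96 Mb of chromosome 2 held 1.51% and 1.502% of cis reads beyond 1 Mb in NSC and 3.44% and 3.37% in N2a (log2 1.18, SE 0.37, adjusted p 0.0338). Leaving out any 1 ES, NSC or N2a library ended that call (adjusted p 0.0746 to 0.115).

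Among gene bodies of the Pax6 locus, 4930527A07Rik and Dcdc5 fell from all 3 viewpoints. The list held 31 genes around the 5 viewpoints, of which 22 were tested in 41 pairs with a viewpoint. Of these pairs 1 was higher and 8 lower, with a median log2 change of -0.20, beside 1, 14 and -0.38 for all 133 pairs. Dcdc1 had no matching RefSeq entry, and the other 8 lay within 5 kb of a viewpoint or beyond 1 Mb. From Paupar, the noncoding gene 4930527A07Rik (chr2:105476443-105549643) held 3.17% and 3.27% of cis reads in NSC and 1.60% and 1.26% in N2a. The log2 change was -1.17 (SE 0.22, adjusted p 0.00068). From Pax6P0 the shares were 3.02% and 3.39% against 1.21% and 1.66% (log2 -1.16, adjusted p 0.00198), and from Pax6P1 2.41% and 2.77% against 0.950% and 1.14% (log2 -1.31, adjusted p 0.00198). In ES cells and neurons the means from Paupar were 3.27% and 3.29%, close to NSC.

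Dcdc5 (chr2:106080864-106409743), a doublecortin-domain gene about 0.4 Mb downstream, held 6.86% and 5.95% in NSC and 2.84% and 3.46% in N2a from Paupar. Its log2 changes were -1.02 (SE 0.18, adjusted p 0.00068) from Paupar, -0.97 (SE 0.22, adjusted p 0.00459) from Pax6P0 and -1.07 (SE 0.19, adjusted p 0.00068) from Pax6P1. The Pax6P0 call ended when NSC replicate 2 or N2a replicate 1 was left out (adjusted p 0.0689 and 0.0685). As a share of the reads within 1 Mb, 4 gene bodies were higher and 10 lower over all viewpoints, and 25 in all were called without N2a replicate 2. Outside the list, Gm14015 fell from Paupar and Pax6P1 (log2 -2.25 and -2.19), and Them7 and Gm35946 from Pax6P1 (log2 -1.42 and -1.62).

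Pax6, Pax6os1 and Elp4 did not pass from any of the 3. Genes here overlap, Pax6os1 with 4930527A07Rik and with Pax6, and share the fragments of the overlap. Pax6os1, the noncoding gene antisense to Pax6 that spans Paupar, held 19.6% and 23.8% in NSC and 20.2% and 22.6% in N2a from Paupar (log2 -0.02, adjusted p 0.923). Pax6 itself held 6.32% and 5.82% in NSC and 7.06% and 7.35% in N2a from Paupar (log2 0.25, adjusted p 0.343), and 12.5% and 10.1% against 8.79% and 7.55% from Pax6P1 (log2 -0.47, adjusted p 0.0533). Elp4, an Elongator subunit gene whose introns hold distal Pax6 enhancers, held 9.79% and 8.53% in NSC and 6.32% and 7.28% in N2a from Paupar (log2 -0.43, adjusted p 0.0637), without overlap. From Pax6P0 and Pax6P1 Elp4 changed by 0.09 and -0.09, and the libraries overlapped. Immp1l, encoding a mitochondrial peptidase subunit, and Dnajc24 had log2 changes of -0.29 to 0.09 from all 3 viewpoints with adjusted p of 0.699 to 0.979. Rcn1 and Wt1, a kidney and gonad transcription factor gene, passed from 0 of 3 viewpoints, with log2 changes of -1.22 to 0.58. Wt1 held under 1% in each of these libraries. Without N2a replicate 2, Wt1 from Pax6P0 (log2 -2.26, adjusted p 0.014), Elp4 from Paupar (-0.53, 0.0423) and Paupar from Pax6P1 (-2.06, 0.0161) passed. Pax6 from Pax6P1 passed when NSC replicate 2 (-0.61, 0.0213) or N2a replicate 1 (-0.58, 0.0458) was left out, in DESeq2 (-0.47, 0.0369), with the replicate block (-0.47, 0.0179), and when runs of fragments were collapsed to their fewest reads (-0.50, 0.046). Elp4 from Paupar also passed with the replicate block (-0.42, 0.038), and Pax6os1 from Pax6P0 with fewest reads (-0.41, 0.016). As a share of the reads within 1 Mb, Pax6 from Paupar passed as higher in N2a (0.50, 0.0275).

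**Figure D4:**
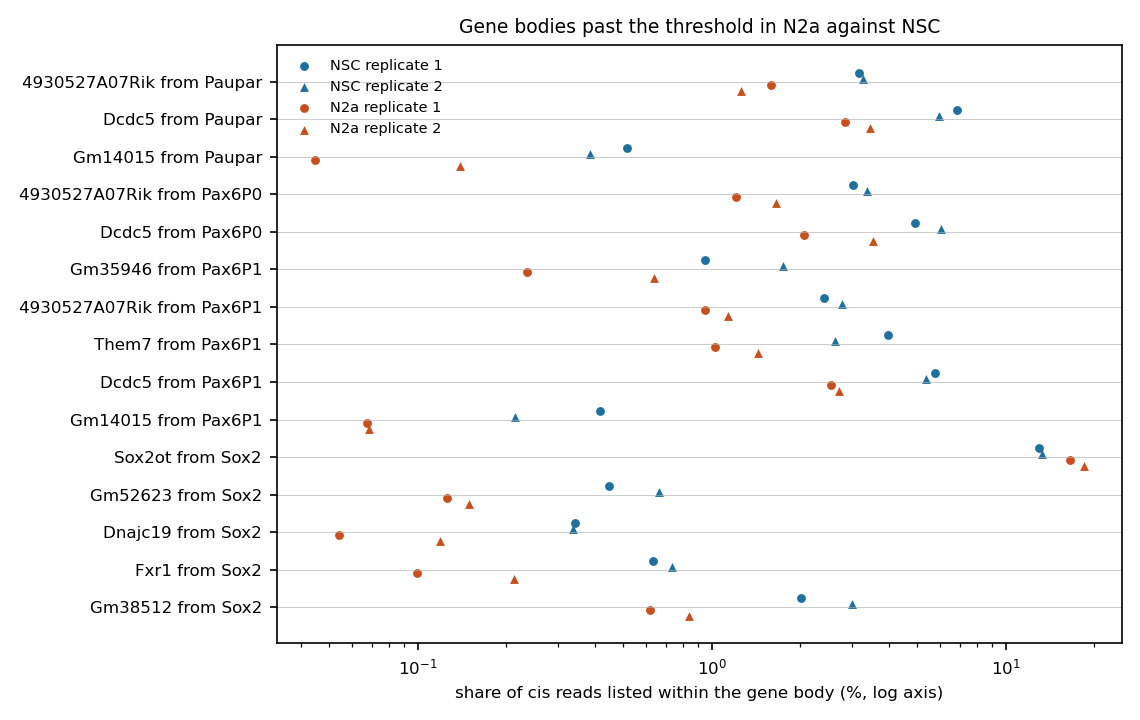
Share of cis reads (percent, log axis) listed within each of the 15 pairs of gene body and viewpoint past the threshold, 1 point per library. In 14 pairs both N2a libraries lie below both NSC libraries, and Sox2ot from Sox2 is the reverse. Of all 133 pairs tested, the libraries did not overlap in 67.

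Single 5 kb windows of the Pax6 locus rarely passed. From Paupar 1 of 356 windows was called (0.281%), from Pax6P0 0 of 321 (0%) and from Pax6P1 3 of 320 (0.938%), and 58, 42 and 61 were under 0.05 before adjustment. DESeq2 called 8, 11 and 20. The median log2 changes were -0.60, -0.73 and -0.70. With TMM factors they were 0.06, -0.16 and -0.25, and 8 windows were higher and 1 lower from Paupar and 0 were called from Pax6P0 and Pax6P1. The Paupar count was 0 when NSC replicate 2 was left out and 2 when N2a replicate 2 was. The Pax6P0 count was 1 when NSC replicate 1 or N2a replicate 1 was left out, 7 when NSC replicate 2 was and 8 when N2a replicate 2 was. From Pax6P1 NSC replicate 1, NSC replicate 2 and N2a replicate 2 gave 0, 1 and 9 when left out.

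The lower window of Paupar and 1 of the 2 lower windows of Pax6P1 lay in 4930527A07Rik. From Paupar the window 145 to 140 kb upstream held 0.402% and 0.480% in NSC and 0.0864% and 0.0534% in N2a (log2 -2.68, adjusted p 0.00167). From Pax6P1 the window 155 to 150 kb upstream held 0.341% and 0.551% in NSC and 0.0449% and 0.0495% in N2a (log2 -3.23, adjusted p 0.013). The first lost its call without NSC replicate 2 or N2a replicate 2, and the second without NSC replicate 1 or NSC replicate 2. The first was also lost with fewest reads (adjusted p 0.282), only the N2a and NSC libraries (0.118) and DESeq2 size factors (0.0561). The second was also lost with TMM factors (0.0676) and DESeq2 size factors (0.0895). The window 5 to 10 kb downstream of Pax6P1, in Pax6, held 7.97% and 5.22% against 4.06% and 3.11% (log2 -0.88, adjusted p 0.0407). Leaving out NSC replicate 1, N2a replicate 1 or N2a replicate 2 ended its call. Scaling by TMM factors (log2 -0.36, adjusted p 0.615) or DESeq2 size factors (-0.23, 0.768) ended it too, as did fewest reads (-0.90, 0.331). The median log2 change of the tested Pax6P1 windows was -0.70. The higher window, almost 1 Mb downstream of Pax6P1 (chr2:106640114-106645113), held 0 reads in both NSC libraries, 176 in N2a replicate 1 and 3 in N2a replicate 2. Taken against an assumed 3 reads over the NSC group, the N2a mean was 52.9-fold higher, which is not a lower bound. The log2 change was 9.75 with an interval half-width of 4.45, and 4.31 without N2a replicate 1. The call rested on that library, and ended when it or either NSC replicate was left out. It also ended with TMM factors (adjusted p 0.0676) and DESeq2 size factors (0.0895).

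Contacts among the Paupar, Pax6P0 and Pax6P1 stretches themselves did not pass in any of 6 directed pairs. edgeR called 0 pairs, with 0 at an unadjusted p under 0.05 and adjusted p of 0.647 to 0.945, and DESeq2 called 0. From Paupar the Pax6P0 stretch held 1.69% and 2.02% of cis reads in NSC and 1.71% and 1.82% in N2a, and the Pax6P1 stretch 0.249% and 0.588% against 0.749% and 0.408%. From Pax6P0 the Paupar stretch held 1.957% and 4.16% in NSC and 2.87% and 3.17% in N2a. The libraries of the groups overlapped in all 6 pairs. The standard errors of the log2 changes were 0.26 to 0.45. The half-widths of their intervals, of the kind given above for the control region, were 0.50 to 0.88. Differences smaller than these half-widths could therefore not be told from no change at this depth, and adjustment over the pairs asks for larger ones. Without NSC replicate 2, 1 pair was called.

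From Pou3f3, 6 of 25 classes passed, 2 higher and 4 lower in N2a. Upstream, the class 500 kb to 1 Mb held 14.6% and 14.3% of cis reads in NSC and 13.1% and 15.1% in N2a (log2 -0.03, SE 0.16, adjusted p 0.899). The class 1 to 2 Mb upstream held 17.0% and 13.4% in NSC and 18.4% and 17.9% in N2a (log2 0.26, SE 0.16, adjusted p 0.214), and the ES mean there was 8.30%. The class 50 to 100 kb upstream rose from 1.81% and 2.03% to 2.93% and 4.15% (log2 0.88, SE 0.26, adjusted p 0.00645), and the class 500 kb to 1 Mb downstream from 0.903% and 1.14% to 1.93% and 1.62% (log2 0.78, SE 0.27, adjusted p 0.0191). The lower classes lay 10 to 20 kb downstream (log2 -0.61), 2 to 5 Mb upstream (-0.83), 10 to 20 Mb downstream (-1.21) and 20 to 50 Mb downstream (-0.77). In the class 10 to 20 Mb downstream the shares were 2.51% and 2.93% in NSC and 1.39% and 0.973% in N2a (SE 0.25, adjusted p 0.000257). This call and that at 2 to 5 Mb upstream held whichever library was left out. Of the others, 50 to 100 kb upstream was lost without NSC replicate 1 (0.0809) or N2a replicate 2 (0.133), 500 kb to 1 Mb downstream without NSC replicate 1 (0.14), and 20 to 50 Mb downstream without NSC replicate 2 (0.0709) or N2a replicate 2 (0.165). The 10 to 20 kb call ended when ES replicate 1, NSC replicate 2 or either N2a library was left out (0.0503 to 0.146).

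Of the 323 Pou3f3 windows 0 were higher and 2 lower (0.619%), with 39 under 0.05 before adjustment and a median log2 change of 0.27. The window 440 to 435 kb upstream, in the noncoding gene Gm28175, held 0.835% and 0.845% in NSC and 0.189% and 0.231% in N2a (log2 -1.995, SE 0.44, adjusted p 0.00187). Its means were 0.146% in ES cells and 0.850% in neurons. The window 15 to 20 kb downstream, over Pantr2, a noncoding neighbour of Pou3f3, held 1.79% and 1.83% in NSC and 0.754% and 0.794% in N2a (log2 -1.23, SE 0.29, adjusted p 0.00378). Replicates differed little from each other in both windows. Even so, without N2a replicate 1 the adjusted p were 0.104 and 0.125, and without N2a replicate 2 they were 0.079 and 0.16. Without ES replicate 1 or 2 the second was 0.0648 or 0.0623. The count was 1 without ES replicate 1 or 2, 0 without N2a replicate 1 or 2, and 4 without NSC replicate 1.

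The 7 listed gene bodies tested from Pou3f3 had adjusted p of 0.101 to 0.917. Pantr1, the other noncoding neighbour, held 8.42% and 11.1% in NSC and 9.59% and 9.60% in N2a (log2 -0.03, adjusted p 0.917), and Pantr2 3.57% and 4.89% against 3.02% and 3.001% (log2 -0.49, adjusted p 0.101). Without NSC replicate 1 Pantr2 passed (-0.70, adjusted p 0.0335). Mrps9, a mitochondrial ribosome gene, Gpr45, Tgfbrap1, Fhl2 and the adaptor gene Nck2 had log2 changes of -0.55 to 1.03 and adjusted p of 0.195 to 0.916. Among 2 Mb bins, 2 were higher and 7 lower in N2a. The higher bins, which start at 150 and 158 Mb, each lost their call in some fits without 1 library. So did the lower bins that start at 52, 58, 62 and 86 Mb. The bin at 38 to 40 Mb of chromosome 1 held 6.003% and 5.70% of cis reads beyond 1 Mb in NSC and 2.35% and 3.04% in N2a (log2 -1.12, adjusted p 0.000393). The bins at 74 to 76 Mb (1.73% and 1.77% against 0.299% and 0.629%) and 60 to 62 Mb (1.06% and 1.83% against 0.306% and 0.443%) changed by -1.90 and -1.95, with adjusted p of 0.000131 and 0.000657. Without NSC replicate 2 the last of these was at an adjusted p of 0.0768.

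Among other chromosomes few pairs of viewpoint and chromosome passed, and several chromosomes leaned the same way from all 5 viewpoints. Of 100 pairs of viewpoint and chromosome 1 was higher and 3 lower in N2a (4%), with 23 under 0.05 before adjustment. Chromosome 8 had the higher share in N2a from all 5 viewpoints, by 0.37 to 0.50 on the log2 scale, with libraries apart from 4 of them. Past the threshold it was from Pou3f3, where it took 5.38% and 6.05% of the reads on other chromosomes in NSC and 9.55% and 6.58% in N2a (adjusted p 0.0431). When N2a replicate 1 was left out, its log2 change there was 0.20 (adjusted p 0.487). Chromosome 14 was lower from all 5 viewpoints, by -0.57 to -0.32, and passed from Pax6P0 and Pax6P1 (adjusted p 0.0431 each). Chromosome 4 was lower from all 5 by -0.50 to -0.21, with N2a and NSC libraries apart from each of them and 0 of 5 past the threshold. Chromosome 10 was also higher from 5 of 5 (0.04 to 0.45), and chromosomes 16 (-0.19 to -0.01), 17 (-0.54 to -0.04) and 18 (-0.63 to -0.09) were lower from 5 of 5. The libraries were apart from 1, 1, 3 and 2 viewpoints in these 4 chromosomes. Over all 100 pairs of viewpoint and chromosome they were apart in 46. Chromosome 9 passed from Sox2 (4.61% and 5.32% against 3.30% and 3.01%, log2 -0.66, adjusted p 0.0211). The viewpoints of a library share its cells, so that 5 viewpoints are not 5 replicates.

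Summed over the viewpoints and taken among the chromosomes that hold none, chromosome 8 took 7.38% and 6.88% in NSC, 10.6% and 9.04% in N2a, and means of 6.87% in ES cells and 7.28% in neurons. Chromosome 14 took 5.83% in both NSC libraries and 4.08% and 4.57% in N2a, and chromosome 6 took 7.92% and 7.16% against 9.15% and 8.60%. Chromosome 4 took 8.68% and 8.30% in NSC, 6.49% and 6.92% in N2a, 8.07% in ES cells and 7.91% in neurons. The called counts were unstable: 0 without ES replicate 1 or 2, neuron replicate 1 or 2, or NSC replicate 2, while it was 1 when NSC replicate 1 was left out and 13 when N2a replicate 2 was. In 10 Mb bins summed over viewpoints, 3 of 227 were higher and 3 lower (2.64%; 1.32% higher, 1.32% lower), with 42 under 0.05 before adjustment. The bin at 40 to 50 Mb of chromosome 4 held 0.650% and 0.430% in NSC and 0.225% and 0.214% in N2a (log2 -1.28, SE 0.27, adjusted p 0.000821), lower from all 5 viewpoints. The bin at 40 to 50 Mb of chromosome 8 held 0.606% and 0.571% in NSC and 1.07% and 1.08% in N2a (log2 0.87, SE 0.23, adjusted p 0.0221), with the mean higher from 4 viewpoints and lower from Sox2.

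On chromosome 8 the higher share was not limited to single bins. Of its 13 bins 11 had a log2 change above 0, and in 11 the N2a and NSC libraries did not overlap, though 2 passed. Over all 227 bins, 104 had a log2 change above 0, and the libraries did not overlap in 95. The other called bins were 30 to 40 Mb of chromosome 8 (log2 0.94), the first 10 Mb of chromosome 15 (0.91), 100 to 110 Mb of chromosome 14 (-0.96) and 20 to 30 Mb of chromosome 16 (-0.88), with adjusted p of 0.032 to 0.0398. These 4 kept their calls in 4 to 7 of 15 alternatives, and lost them in edgeR with only the N2a and NSC libraries (adjusted p 0.247 to 0.253). The first changed by 0.40 without N2a replicate 1, and the second by 0.39 without the Pou3f3 viewpoint. The chromosome 4 bin also lost its call in edgeR with only the N2a and NSC libraries (adjusted p 0.195). It was lost too without NSC replicate 1 or neuron replicate 1. The bin at 40 Mb of chromosome 8 lost its call with fewest reads (adjusted p 0.0582) and without the Pou3f3 viewpoint (0.146). Leaving out NSC replicate 1, NSC replicate 2 or neuron replicate 1 also ended that call. The count was 0 to 3 without any 1 ES, neuron or NSC library, 20 without N2a replicate 1 and 14 without N2a replicate 2. Beside these shifts, a listed fragment on another chromosome held a mean of 2.33 to 3.42 reads in the N2a files and 1.97 to 2.15 in the NSC files; the part this plays in the results was not tested.

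**Figure D5:**
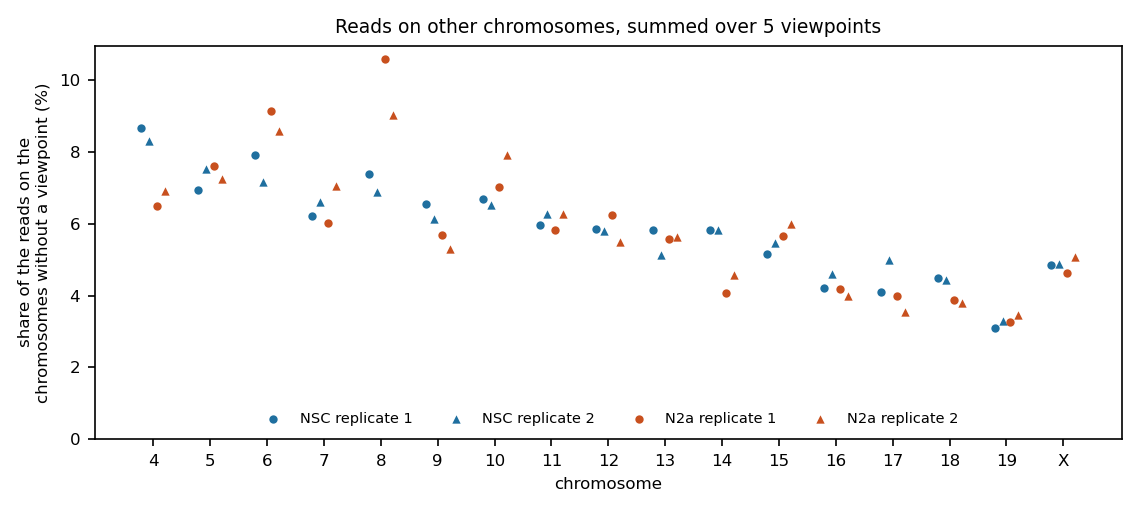
Share of the reads on chromosomes without a viewpoint (percent, axis from 0) that fell on each of them, summed over 5 viewpoints, 1 point per library; chromosome Y, under 0.3%, is not drawn. Chromosome 8 lies at 10.6% and 9.04% in N2a against 7.38% and 6.88% in NSC, and chromosome 4 at 6.49% and 6.92% against 8.68% and 8.30%.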

How the data were processed

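The 5 viewpoints were read in 8 libraries, of which the 4 N2a and NSC libraries form the comparison. The submitters' processing notes name Trim Galore, Bowtie and the build mm10. Their versions, the restriction enzyme, duplicate removal and how reads were counted are not given in any source used here. In the deposited files the column used gives counts of reads for each fragment with 1 read or more, not normalized by the authors. In the N2a and NSC files 70.3% to 96.3% of the fragments on other chromosomes lay next to another listed fragment. The same read may thus be counted in more than 1 fragment. Read totals were 1.73 to 2.86 times the fewest reads that could make these runs. From Sox2 this was 1.78 and 2.86 in NSC replicates 1 and 2, and 1.96 and 2.24 in N2a. The authors' RPMs column, a signal, their z score and their p-value and q-value columns were deposited beside it and not used. Reads carry no molecular identifiers here, so counting errors understate the true ones.

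Reads were summed by fragment midpoint into distance classes, 5 kb windows within 1 Mb, RefSeq gene bodies, 2 Mb bins beyond 1 Mb, other chromosomes and 10 Mb bins of these. edgeR 4.0.16 (R 4.3.3; quasi-likelihood, robust) was fitted to the 8 libraries together, cell type being the only term, with offsets from the denominators named in the text, and a count filter of 10. Adjustment was by Benjamini and Hochberg with a threshold of 0.05, over the windows of 1 viewpoint, over all rows for the rest. DESeq2 1.42.0 was an alternative. Common dispersions gave coefficients of variation of 55.3% to 73.1% for windows and 16.7% for distance classes. Named windows, classes and bins are the up to 4 higher and 4 lower of smallest adjusted p whose libraries do not overlap, per viewpoint for windows; genes are a fixed list plus others past the threshold. The comparison, the lists and the tests were chosen with earlier results of these data known.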

Additional observations from a re-analysis of the deposited data

How the results depend on the processing

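The naming rule above picked 45 windows, classes, genes and bins past the threshold. Of these, 22 kept direction and call under every alternative run, 0 reversed, and 121 of 669 refits lost a call. Called classes and far bins that the rule did not pick are not among the 45. Many of them, several described above, lost their call when 1 library was left out. Counts of called windows in the order Paupar, Pax6P0, Pax6P1, Sox2 and Pou3f3 were 8, 11, 20, 60 and 2 with DESeq2; 0, 0, 1, 17 and 0 when runs of fragments were collapsed to their fewest reads; 0, 0, 5, 16 and 1 with only the 4 libraries compared; 9, 0, 0, 24 and 2 after TMM scaling; 7, 0, 0, 33 and 2 after scaling by DESeq2 size factors; 1, 0, 5, 29 and 2 with no filter; 1, 5, 10, 35 and 1 in 10 kb windows; 11, 9, 8, 28 and 0 in 20 kb windows; and 1, 1, 3, 19 and 2 when adjusted over all viewpoints. Leaving out 1 library gave 0 to 2, 0 to 8, 0 to 9, 18 to 45 and 0 to 4 windows, 29 to 44 distance classes, 10 to 25 gene bodies, 0 to 1 viewpoint pairs, 15 to 39 far bins, 0 to 13 other chromosomes and 0 to 20 bins of other chromosomes, and moved the log2 change of the region 100 to 120 kb downstream of Sox2 between -0.55 and 0.39. Distance classes fell to 24 as shares of all listed reads. Far bins numbered 46 with DESeq2, 16 with the 4 libraries and 48 as shares of all cis reads. Other chromosomes numbered 0 with the 4 libraries and 0 as shares of all listed reads. Bins of other chromosomes numbered 14 with DESeq2, 1 with the 4 libraries, 1 as 5 Mb bins, 2 without the Sox2 viewpoint and 1 without the Pou3f3 viewpoint. The difference in the share of reads on other chromosomes changed sign in leave-one-out values from each viewpoint, which ran from -9.915 to 9.22 points for Paupar, -10.2 to 7.47 for Pax6P0, -5.67 to 14.3 for Pax6P1, -7.46 to 6.31 for Sox2 and -9.93 to 10.9 for Pou3f3. The causes were not tested.

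The replicate numbers are not said to pair the libraries. Deviations of libraries with the same number from their group means correlated at -0.05 to 0.02 across windows. That correlation cannot show a shared shift of broader shares. In all 4 cell types the number 1 library had the larger share on other chromosomes. In N2a and NSC it also held less of its cis reads within 1 Mb from each viewpoint. The main fits held no term for the replicate number. With the replicate block the counts were 1, 4, 3, 32 and 2 windows, 44 distance classes, 21 gene bodies, 0 pairs, 36 far bins, 1 other chromosome and 12 bins of other chromosomes. The median window held 16 to 28 reads per library. NSC replicate 1, with 18150 to 26945 reads per file, was the shallowest library. With 2 libraries per group, windows with changes smaller than their spread were not detectable.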
